A study of Rattus norvegicus with 9 samples.

Results

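The liver arrays measured 50 genes of 6 enzyme families that act on alcohols, aldehydes, ketones, esters, amines and epoxides, out of 14377 genes read by a probe set with a single gene symbol. The members were chosen by symbol alone, without use of their values. They comprised 5 alcohol dehydrogenases (Adh), 18 aldehyde dehydrogenases (Aldh), 15 aldo-keto reductases (Akr), 4 carboxylesterases (Ces), 5 flavin-containing monooxygenases (Fmo) and 3 epoxide hydrolases (Ephx). A probe set is a group of short oligonucleotides that together measure 1 transcript, and where a gene had several, the one with the strongest average signal stood for it.

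These families form much of the liver's equipment against small reactive molecules. Alcohol dehydrogenases turn alcohols into aldehydes, aldehyde dehydrogenases oxidise aldehydes to acids, and aldo-keto reductases work in the other direction, reducing aldehydes and ketones to alcohols. Carboxylesterases cut esters of drugs and lipids, flavin-containing monooxygenases add oxygen to nitrogen and sulfur, and epoxide hydrolases open epoxides with water. CCl4 is converted by cytochrome P450 in hepatocytes to radicals that attack membrane lipids, and the breakdown of those lipids releases reactive aldehydes, which are substrates of several of these enzymes.

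RNA came from frozen liver of 9 male Sprague-Dawley rats, 1 array per rat, in the groups vehicle, CCl4 and CCl4+Rot with 3 rats each, taken from an experiment with 18 rats. CCl4 mixed 1:1 with olive oil was injected into the peritoneum 2 times a week for 8 weeks. Rats of the CCl4+Rot group received CCl4 and, 2 weeks after the first injection of it, rottlerin, an activator of BK potassium channels, at 2.5 mg/kg. How often rottlerin was given, and what the vehicle contained, is not given in the sources used here. The design asks how the fibrotic liver differed from the vehicle liver and how rottlerin modified that difference.

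All values are log2 signals as deposited, on which a difference of 1 is a doubling. The test was limma, fitted over all 9 arrays and 31042 probe sets, and a gene counted as called where the adjusted p (Benjamini-Hochberg) was below 0.05 and the difference at least 1.5-fold. Of the 50 members, 38 were called present (detected above background) on all 9 arrays and 4 on none, namely Adh6a, Aldh3a1, Akr1b10 and Ephx4. CCl4 replicate 3 stood apart from the other arrays, with 12714 probe sets called present against 15550 to 16849 and a median log2 signal of 7.81 against 6.79 to 7.01. Among the 20 members with a mean signal of at least 12, this array was the lowest of the 9 for 13 (65.0%), close to its share among all genes of that signal, which was 64.3% of 882. Many of the changes with CCl4 are therefore also given without it. Those given only once include this array.

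The tissue label was borne out by 9 measured hepatocyte markers, among them Alb and Ttr, which were present on all 9 arrays. The mean log2 signal of this list was between 14.72 and 14.87 in vehicle-treated rats, 14.34 and 14.82 in CCl4-treated rats and 14.80 and 14.93 in CCl4+Rot rats. Markers of stellate cells and myofibroblasts, the collagen-producing cells of the fibrotic liver, had mean signals of 8.71 to 9.09, 9.56 to 10.14 and 10.02 to 10.20 in the same groups, and all 12 were higher in CCl4-treated than in vehicle-treated rats. Of these 12, 7 had an unadjusted p below 0.05 in limma, compared with 13.5% of all genes. Limma with a robust, signal-dependent spread called 3 of them, and 1.12% of all probe sets. Without CCl4 replicate 3, 11 of the 12 were higher and 1 was lower, and 6 had an unadjusted p below 0.05. Periportal hepatocyte markers were lower in CCl4-treated than in vehicle-treated rats, with mean signals of 13.94 to 14.05, 12.93 to 13.55 and 13.23 to 13.74 in the same groups. The 12.93 belonged to CCl4 replicate 3, and the other CCl4-treated rats, at 13.55 and 13.43, lay within the CCl4+Rot range. The median difference was -0.45 for CCl4 minus vehicle and 0.22 for CCl4+Rot minus CCl4, and -0.26 and 0.06 without that array. In liver tissue, fewer cells of a type and less RNA per cell cannot be told apart, and the part of cell composition in the changes given here was not tested.

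Between CCl4-treated and vehicle-treated rats, limma called 0 of the 50 members, with 0% of the 31042 probe sets called. An unadjusted p below 0.05 was reached by 14 members, 6 higher and 8 lower with CCl4, compared with 13.5% of all genes. The number was 5 with vehicle replicate 4 left out, 8 with vehicle replicate 5 left out and 12 with CCl4 replicate 3 left out, when 7 were higher and 5 lower, so that the balance of directions turned. The signals of both groups did not overlap for 7 members that were higher and 11 that were lower, where 12.5% and 8.53% of all genes did so. Under a scaling that centres each array on its median, these counts were 3 and 15, with 4.99% and 13.2% of all genes, and the members below an unadjusted p of 0.05 were 1 higher and 6 lower. The fit with a robust, signal-dependent spread called 2 members, Aldh18a1 and Akr7a3, which were both higher with CCl4, and 1.12% of all probe sets.

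**Figure D1:**
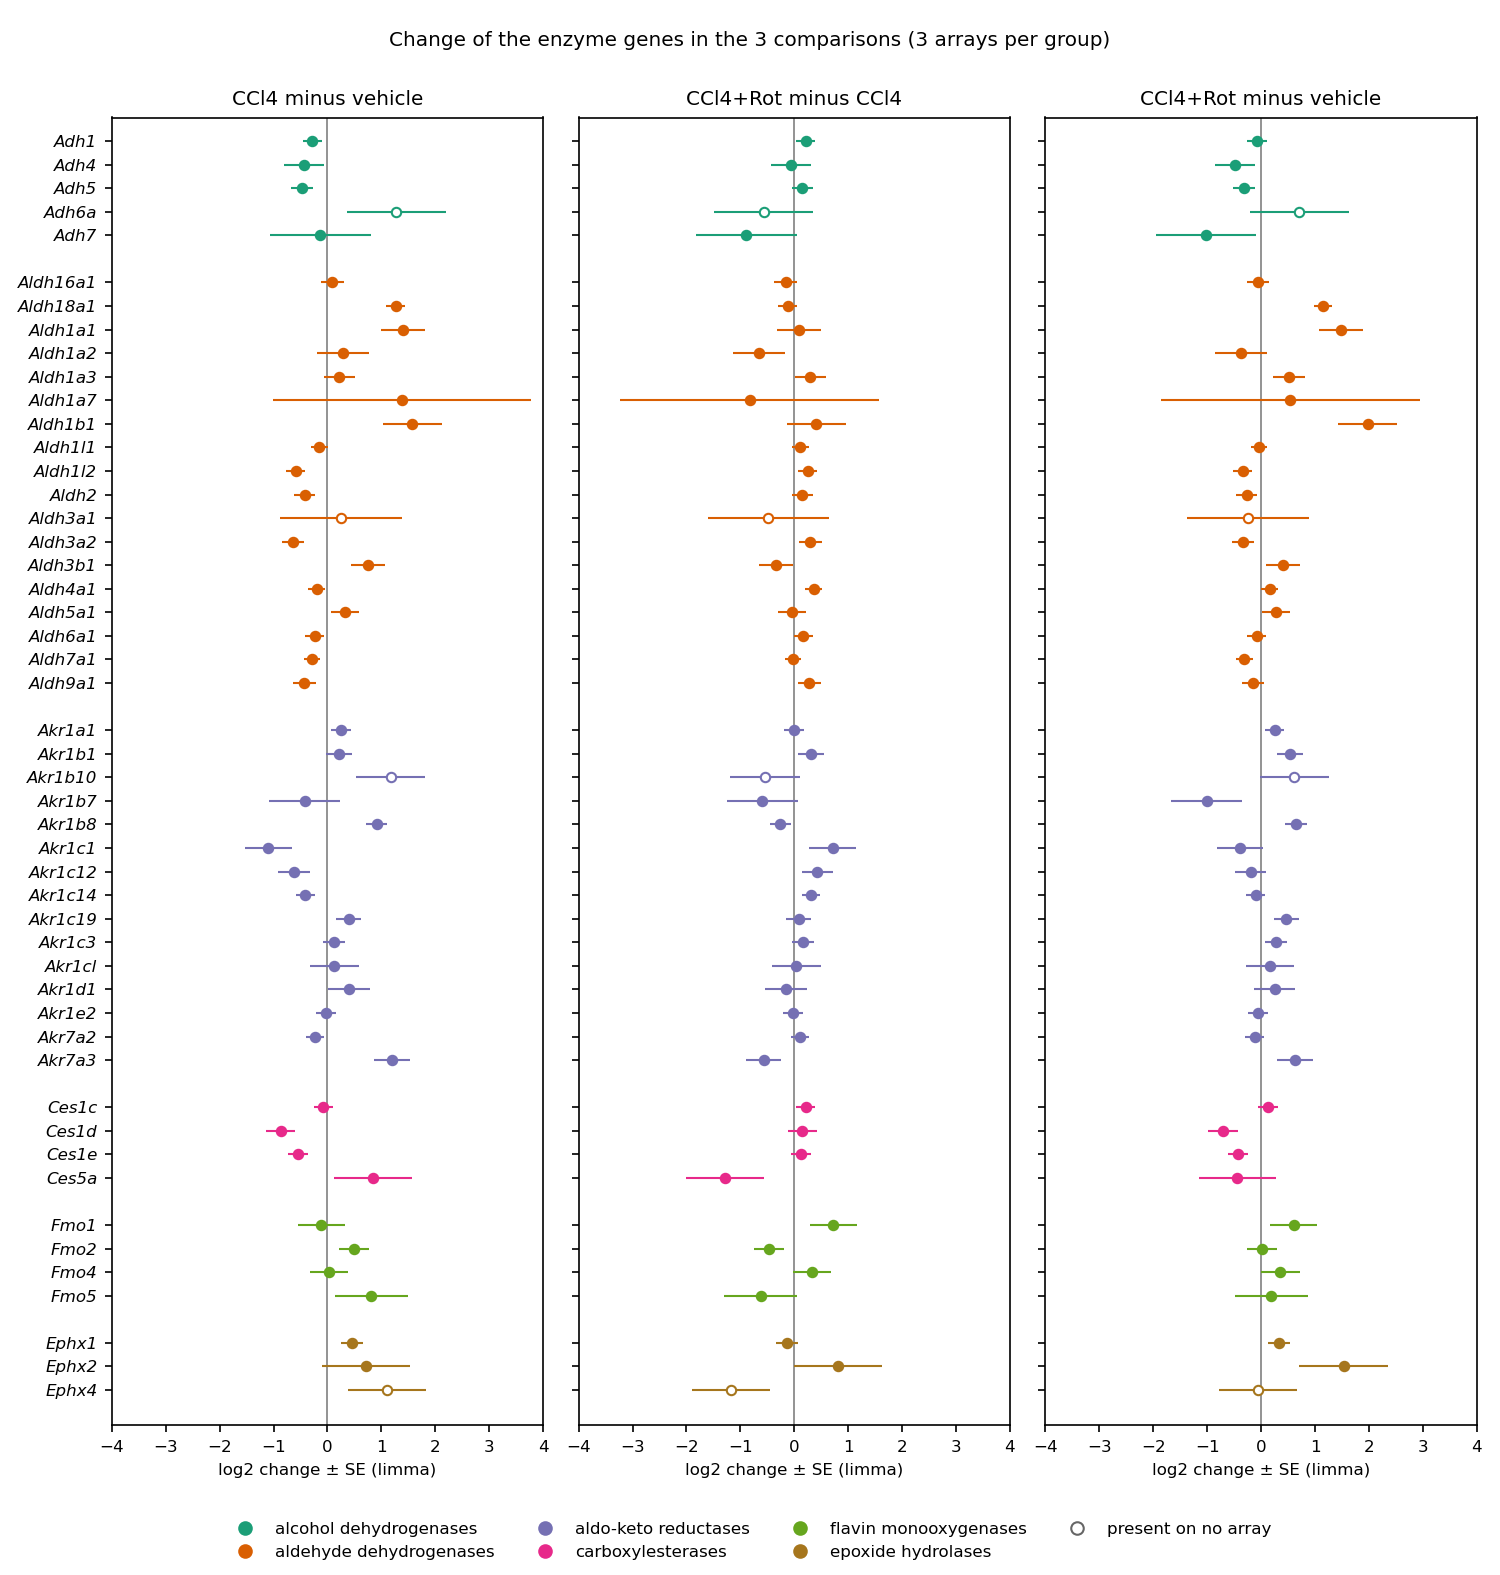
Log2 change of 49 of the 50 members (points) with its limma standard error (bars) in 3 comparisons, from left to right CCl4 against vehicle, CCl4+Rot against CCl4 and CCl4+Rot against vehicle, with 3 arrays per group, grouped and coloured by family. In the left panel the changes ran from -1.10 (Akr1c1) to 1.57 (Aldh1b1), and open points mark the 4 genes present on no array.

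The aldehyde dehydrogenases held well detected members of both directions. Aldh1a1, Aldh1b1 and Aldh18a1 were more than 2-fold higher in CCl4-treated than in vehicle-treated rats, with no overlap between the groups. Aldh2 and Aldh3a2, both known as enzymes of the normal hepatocyte, were 1.34-fold and 1.56-fold lower, again without overlap. Of these, only Aldh18a1 was called, and not by limma in its standard form.

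Aldh1a1, the cytosolic enzyme that oxidises retinal to retinoic acid, had log2 signals of 10.63, 10.72 and 10.74 in vehicle-treated rats, 11.65, 12.85 and 11.80 in CCl4-treated rats and 12.22, 11.52 and 12.80 in CCl4+Rot rats, in the order of the replicate numbers. The 3 vehicle values lay within 0.11 of each other, whereas all 6 rats given CCl4 were higher and spread over 1.33 log2 units. The difference between CCl4 and vehicle was 1.40 ± 0.41 (SE), or 2.64-fold, with an adjusted p of 0.275 in limma and 0.0782 in the robust fit. It was 1.55 without CCl4 replicate 3.

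Aldh1b1, a mitochondrial acetaldehyde dehydrogenase, had signals of 9.65, 8.45 and 8.84 in vehicle, 9.67, 11.65 and 10.33 in CCl4 and 10.63, 11.48 and 10.77 in CCl4+Rot rats. The lowest CCl4 value exceeded the highest vehicle value by only 0.02, while all CCl4+Rot values were clear of the vehicle range. Its difference from vehicle was 1.57 ± 0.55 with CCl4 (adjusted p = 0.331) and 1.98 ± 0.55 with CCl4+Rot (adjusted p = 0.358, limma), the largest of any member in both comparisons.

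Aldh18a1 makes the proline precursor pyrroline-carboxylate from glutamate, and proline is a main residue of collagen. Its signals were 6.55, 6.83 and 6.51 in vehicle, 7.67, 7.97 and 8.06 in CCl4 and 7.82, 7.72 and 7.81 in CCl4+Rot rats. The 6 rats given CCl4 were all at least 0.84 above the highest vehicle rat and close together. The difference was 1.27 ± 0.18 with CCl4 (2.41-fold, unadjusted p = 0.000115) and 1.15 ± 0.18 with CCl4+Rot (2.22-fold, unadjusted p = 0.000218). The adjusted p was 0.162 and 0.161 in limma over all probe sets, and 0.0332 and 0.0567 in the robust fit. Aldh4a1, the enzyme that degrades the same precursor, had signals of 12.93, 12.84 and 12.84 in vehicle, 12.58, 12.90 and 12.53 in CCl4 and 13.12, 13.03 and 12.94 in CCl4+Rot rats. CCl4 and vehicle overlapped for Aldh4a1, with a difference of -0.20 ± 0.16.

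The other aldehyde dehydrogenases with non-overlapping groups were lower with CCl4, except Aldh3b1. Aldh3a2, the fatty aldehyde dehydrogenase of the endoplasmic reticulum, had signals of 14.10, 14.30 and 14.10 in vehicle, 13.45, 13.93 and 13.22 in CCl4 and 13.84, 13.81 and 13.86 in CCl4+Rot rats. All rats given CCl4 were below all vehicle rats, with a difference for CCl4 of -0.64 ± 0.21 (adjusted p = 0.307, limma) and of -0.48 without CCl4 replicate 3. Aldh1l2, the mitochondrial formyltetrahydrofolate dehydrogenase, was at 11.74, 12.06 and 11.80 in vehicle, 11.22, 11.40 and 11.21 in CCl4 and 11.42, 11.39 and 11.77 in CCl4+Rot rats. This gave a difference of -0.59 ± 0.18 (adjusted p = 0.288) for CCl4. Its cytosolic counterpart Aldh1l1 differed by -0.15 ± 0.15, with overlapping groups.

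Aldh2, the mitochondrial enzyme that clears acetaldehyde after alcohol, read 14.10, 14.17 and 14.22 in vehicle, 14.00, 13.72 and 13.51 in CCl4 and 14.04, 13.99 and 13.64 in CCl4+Rot rats. Aldh7a1, an enzyme of lysine breakdown, read 13.55, 13.59 and 13.85 in vehicle, 13.47, 13.35 and 13.29 in CCl4 and 13.35, 13.41 and 13.31 in CCl4+Rot rats. Neither gene overlapped between vehicle and either CCl4 group, but the differences were small. They were -0.42 ± 0.19 and -0.29 ± 0.15 for CCl4 (adjusted p = 0.431 and 0.476, limma), and -0.30 and -0.26 without CCl4 replicate 3. Aldh9a1, which supplies carnitine synthesis, was lower by 0.43 with CCl4 and its groups did not overlap either, although 12.93 in CCl4 replicate 3 was far below 13.52 and 13.58 in the other CCl4-treated rats and the difference was -0.22 without it. Aldh3b1, which oxidises lipid aldehydes, was higher by 0.75 ± 0.31 with CCl4, and by 0.43 without CCl4 replicate 3, where its signal was 8.52 against 7.29 and 7.86. Of the other members of this family, Aldh16a1, Aldh1a2, Aldh1a3, Aldh5a1 and Aldh6a1 had changes between -0.24 and 0.32 and overlapping groups. Without CCl4 replicate 3 the range was -0.31 to 0.43, as Aldh1a2 turned from 0.28 to -0.31 and Aldh1a3 moved from 0.22 to 0.43.

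**Figure D2:**
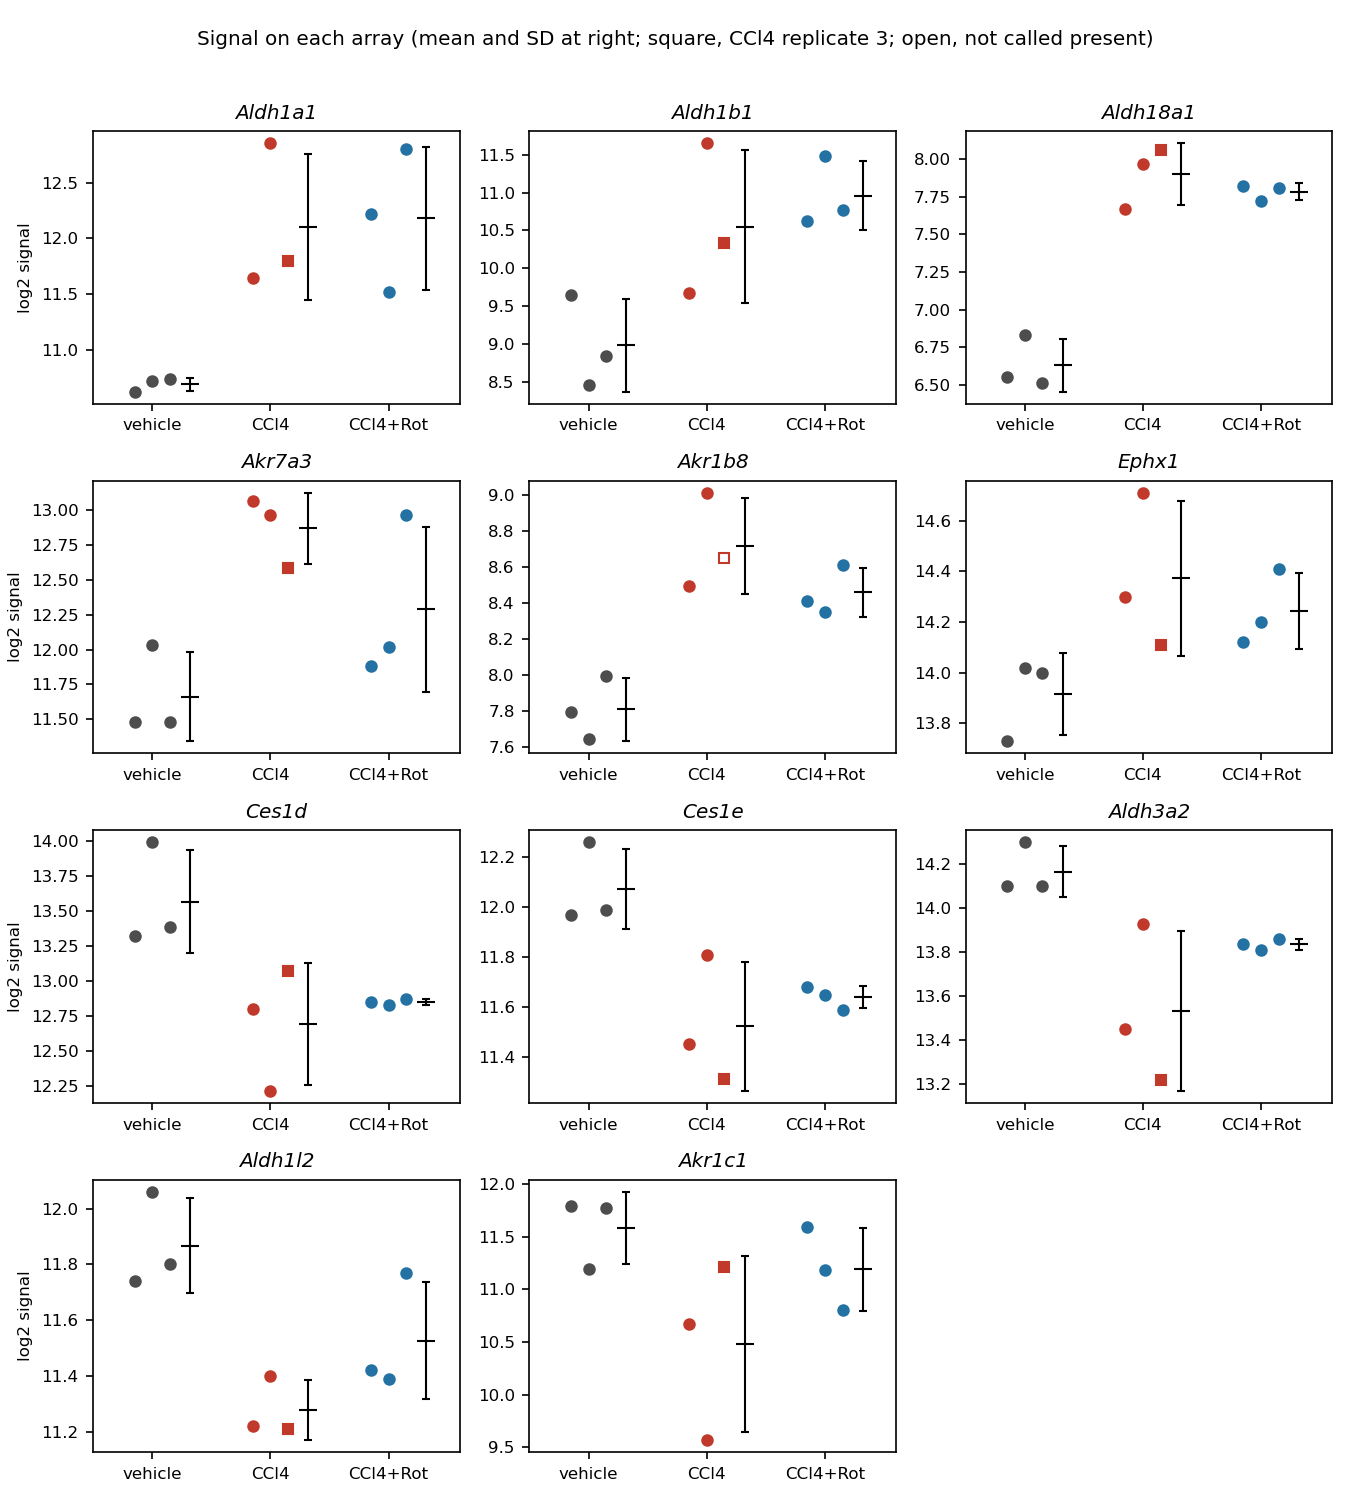
Log2 signal on each array (points) for 11 members in vehicle, CCl4 and CCl4+Rot rats, with the group mean and SD beside the points, squares for CCl4 replicate 3 and an open symbol where a gene was not called present. Aldh1a1, Aldh1b1, Aldh18a1, Akr7a3, Akr1b8 and Ephx1 lie higher in all CCl4-treated rats than in vehicle-treated rats, and Ces1d, Ces1e, Aldh3a2 and Aldh1l2 lie lower, while Akr1c1 overlaps.

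Of the 15 aldo-keto reductases, 9 were higher and 6 lower with CCl4, where the 9 include Akr1b10, which was present on no array. The groups did not overlap for Akr7a3 and Akr1b8, which were higher, and for Akr1c12 and Akr1c14, which were lower. Akr7a3, the aflatoxin aldehyde reductase of rat liver, had signals of 11.48, 12.03 and 11.48 in vehicle, 13.06, 12.96 and 12.58 in CCl4 and 11.88, 12.02 and 12.96 in CCl4+Rot rats. All CCl4-treated rats exceeded all vehicle rats, while 2 of the 3 CCl4+Rot rats lay within the vehicle range. The difference between CCl4 and vehicle was 1.20 ± 0.33 (2.30-fold), with an adjusted p of 0.252 in limma and 0.0433 in the robust fit. It was 1.35 without CCl4 replicate 3, but the robust fit without that array did not call it.

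Akr1b8, an aldose reductase-like protein that reduces lipid-derived aldehydes, had signals of 7.79, 7.64 and 7.99 in vehicle, 8.49, 9.01 and 8.65 in CCl4 and 8.41, 8.35 and 8.61 in CCl4+Rot rats. The 6 rats given CCl4 were all above the 3 vehicle rats, although the gene was not called present in CCl4 replicate 3. The differences from vehicle were 0.91 ± 0.20 with CCl4 (adjusted p = 0.218 in limma and 0.0505 in the robust fit) and 0.65 ± 0.20 with CCl4+Rot (adjusted p = 0.394, limma). Akr1b1, aldose reductase itself, had 9.65, 8.98 and 9.36 in vehicle, 9.28, 9.79 and 9.57 in CCl4 and 9.64, 10.08 and 9.84 in CCl4+Rot rats, so that all 3 groups overlapped. Its second detected probe set had the opposite sign (-0.07 against 0.22 for CCl4 minus vehicle).

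Akr1c14, the hydroxysteroid dehydrogenase of rat liver, had signals of 14.42, 14.38 and 14.39 in vehicle, 14.22, 14.03 and 13.71 in CCl4 and 14.38, 14.25 and 14.24 in CCl4+Rot rats. The CCl4-treated rats were below both other groups without overlap. The 3 detected probe sets of the gene agreed, with CCl4 differences of -0.41, -0.45 and -0.48. The -0.41, from the probe set that stood for the gene, became -0.27 without CCl4 replicate 3. Akr1c12, listed by RefSeq as Akr1c13, had 12.86, 13.06 and 13.24 in vehicle, 12.73, 12.74 and 11.83 in CCl4 and 13.07, 12.95 and 12.56 in CCl4+Rot rats. Its difference for CCl4 was -0.62 with all arrays and -0.32 without CCl4 replicate 3, the array with the outlying 11.83.

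Akr1c1 behaved differently, with 11.79, 11.19 and 11.77 in vehicle, 10.67, 9.57 and 11.21 in CCl4 and 11.59, 11.18 and 10.80 in CCl4+Rot rats. Here CCl4 replicate 3 was the CCl4 array nearest to vehicle, and the difference of -1.10 ± 0.43 (adjusted p = 0.370, limma) became -1.46 without it. The 7 members on chromosome 17 as listed in the deposited table, Akr1c1, Akr1c3, Akr1c12, Akr1c14, Akr1c19, Akr1cl and Akr1e2, ranged from -1.10 to 0.39, with 3 higher and 4 lower. Sequences of the 1C branch are similar, and how far their probe sets share transcripts was not tested. Of the others, Akr1a1, Akr1d1 and Akr7a2 differed by 0.25, 0.40 and -0.23 with overlapping groups, and Akr1b7 was present in only 1 vehicle-treated rat.

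The carboxylesterases read by single-symbol probe sets are all listed on chromosome 19 in the deposited table, and 3 of the 4 were present on all arrays. Ces1d, a hydrolase of stored triglyceride and of drug esters, had signals of 13.32, 13.99 and 13.39 in vehicle, 12.80, 12.22 and 13.07 in CCl4 and 12.85, 12.83 and 12.87 in CCl4+Rot rats. All 6 rats given CCl4 were below the vehicle range, and the 3 CCl4+Rot rats were almost identical. The differences from vehicle were -0.87 ± 0.27 with CCl4 (1.82-fold lower, adjusted p = 0.298 in limma and 0.0696 in the robust fit) and -0.71 ± 0.27 with CCl4+Rot (1.64-fold lower, adjusted p = 0.539 in limma). Without CCl4 replicate 3 the CCl4 difference was -1.06, and the robust fit then called it.

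Ces1e, another carboxylesterase of the hepatocyte, had 11.97, 12.26 and 11.99 in vehicle, 11.45, 11.81 and 11.31 in CCl4 and 11.68, 11.65 and 11.59 in CCl4+Rot rats. It followed the same order as Ces1d, with differences of -0.55 ± 0.19 and -0.43 ± 0.19 from vehicle (adjusted p = 0.317 and 0.594, limma). The CCl4 difference of Ces1e was -0.44 without CCl4 replicate 3. Ces1c, the form secreted into plasma, did not follow, with 14.33, 14.56 and 14.60 in vehicle, 14.38, 14.66 and 14.21 in CCl4 and 14.53, 14.63 and 14.70 in CCl4+Rot rats. Ces5a was present in only 1 CCl4-treated rat. A probe set shared by Ces1f and Cesl1 differed by -0.51 with CCl4, and one shared by Ces2c and an unnamed locus by 1.19, neither of which counts as a member here.

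The flavin-containing monooxygenases were all present on all 9 arrays and did not move together. Fmo1, which oxidises many drugs, had 11.69, 12.03 and 12.12 in vehicle, 11.00, 12.57 and 11.91 in CCl4 and 12.83, 11.92 and 12.91 in CCl4+Rot rats, with 1.57 between the lowest and the highest CCl4-treated rat.

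Fmo2, known mainly from lung, had 6.98, 7.52 and 7.20 in vehicle, 7.29, 7.93 and 7.94 in CCl4 and 7.27, 7.61 and 6.87 in CCl4+Rot rats. Its groups overlapped, and its second detected probe set was lower with CCl4 by 0.50 where the first was higher by 0.49. Fmo4 differed by 0.03 ± 0.36 for CCl4.

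Among the epoxide hydrolases, Ephx1, the microsomal enzyme that opens epoxides of foreign compounds, had signals of 13.73, 14.02 and 14.00 in vehicle, 14.30, 14.71 and 14.11 in CCl4 and 14.12, 14.20 and 14.41 in CCl4+Rot rats. All rats given CCl4 were above all vehicle rats. The difference was 0.46 ± 0.21 with CCl4 (1.37-fold, adjusted p = 0.423, limma), 0.59 without CCl4 replicate 3, and 0.33 ± 0.21 with CCl4+Rot.

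Of the alcohol dehydrogenases, all 5 on chromosome 2, 4 were lower with CCl4 and 1 was higher, Adh6a, which was present on no array. The family median was -0.28, and -0.44 with the mean of all probe sets of a gene. Adh1, the main ethanol-oxidising enzyme of liver and listed by RefSeq as Adh1c, had signals of 14.92, 15.32 and 15.15 in vehicle, 14.70, 15.11 and 14.73 in CCl4 and 15.08, 15.03 and 15.05 in CCl4+Rot rats. The groups overlapped, and the CCl4 difference of Adh1 was -0.28 ± 0.18. Its second probe set, also present on all 9 arrays, differed by -0.69 with CCl4. Between CCl4+Rot and CCl4 the first probe set differed by 0.21 and the second by 0.51. Adh5, which removes formaldehyde bound to glutathione, was the only member of the family without overlap between CCl4 (12.24, 12.23 and 11.81) and vehicle (12.59, 12.60 and 12.49), with a difference of -0.47 ± 0.20 that was -0.33 without CCl4 replicate 3. Adh4 differed by -0.44 ± 0.37. Adh7, better known from stomach, was present in 1 vehicle-treated rat and 1 CCl4+Rot rat and in no CCl4-treated rat.

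Among the families, the median CCl4 difference was 0.72 for the 3 epoxide hydrolases, of which 1 was present on no array, and this value ranged from 0.46 (without CCl4 replicate 2) to 1.28 (without vehicle replicate 3) and was 0.37 after median centring. The carboxylesterases had a median of -0.32 and the alcohol dehydrogenases of -0.28, an order that turned under quantile normalization (-0.15 and -0.22) and without CCl4 replicate 3 (-0.21 and -0.28). The median was 0.16 for the aldehyde dehydrogenases, 0.13 for the aldo-keto reductases and 0.03 for the flavin-containing monooxygenases, all 3 of which turned negative when each array was centred on its median (-0.20, -0.23 and -0.33). That centring adds -0.36 to every CCl4 difference, since the median signal of CCl4 replicate 3 was high. The aldehyde dehydrogenase median was also negative without CCl4 replicate 3 (-0.09), CCl4 replicate 2 (-0.12) or vehicle replicate 4 (-0.06), and that of the flavin-containing monooxygenases ranged from -0.34 (without CCl4 replicate 2) to 0.30 (without CCl4 replicate 1). Over all 50 members 27 were higher and 23 lower, with a median of 0.11, and over all genes the median was 0.13. The 27 include the 4 members present on no array, which have no measured change. The median of all genes likewise includes 3645 genes present on no array. These medians describe the lists, since the genes of a family are not replicates.

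**Figure D3:**
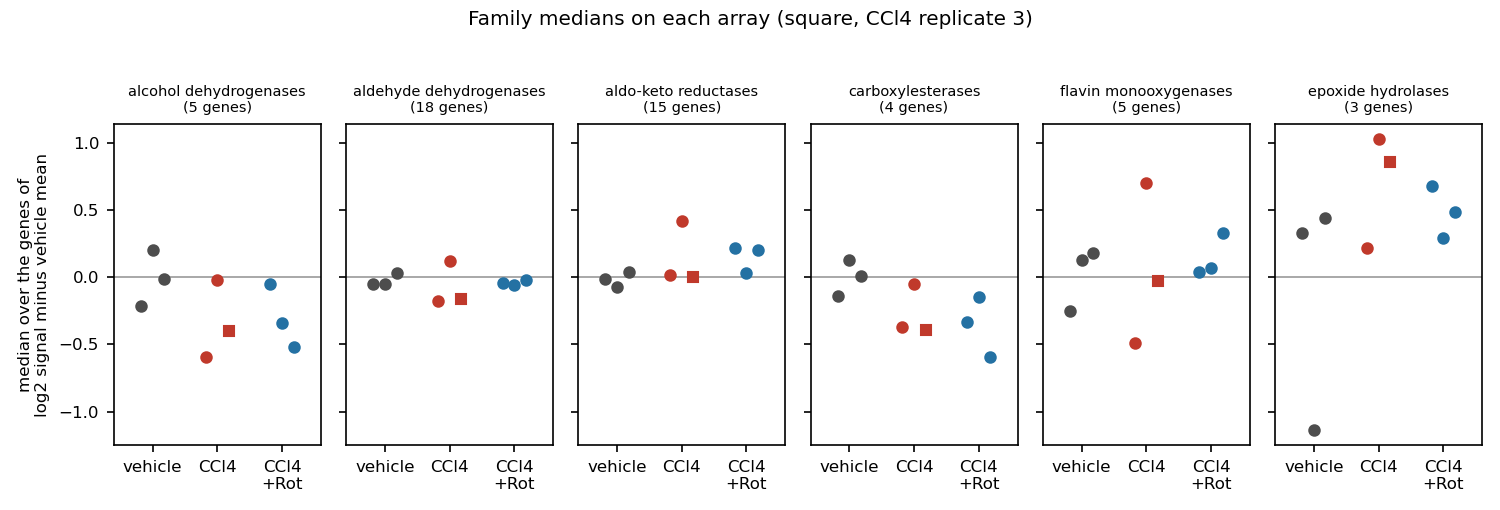
Median over the genes of each family of the log2 signal minus that gene's vehicle mean, array by array, for vehicle, CCl4 and CCl4+Rot rats, with squares for CCl4 replicate 3. Vehicle and CCl4 values overlap in all 6 families, and the lowest vehicle value of the epoxide hydrolases (-1.14) belongs to vehicle replicate 4.

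At both ends of the signal range, direction went with signal strength among the members, as it did over all genes. Of the 20 members with a mean signal of at least 12, 16 (80.0%) were lower with CCl4, with a median of -0.26, against 71.8% of all 882 genes of that signal, with a median of -0.16. Without CCl4 replicate 3, 15 (75.0%) were lower with a median of -0.19, against 54.5% and a median of -0.03. Of the 12 members with a signal below 8, 2 (16.7%) were lower, against 23.1% of all genes of that signal, and 4 (33.3%) were lower without CCl4 replicate 3, against 42.3%. These 12 include the 4 members present on no array, all on the higher side with all arrays. Of all 6937 genes of that signal, 3574 were present on no array. Between 8 and 10 all 6 members were higher, and between 10 and 12 the numbers were 7 higher and 5 lower, both with and without that array. The 4 strongly hybridising members that were higher with CCl4 were Akr7a3, Akr1d1, Ephx1 and Akr1a1. Signal strength depends on the probes as well as on the transcript, so it does not rank these genes by their expression.

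**Figure D4:**
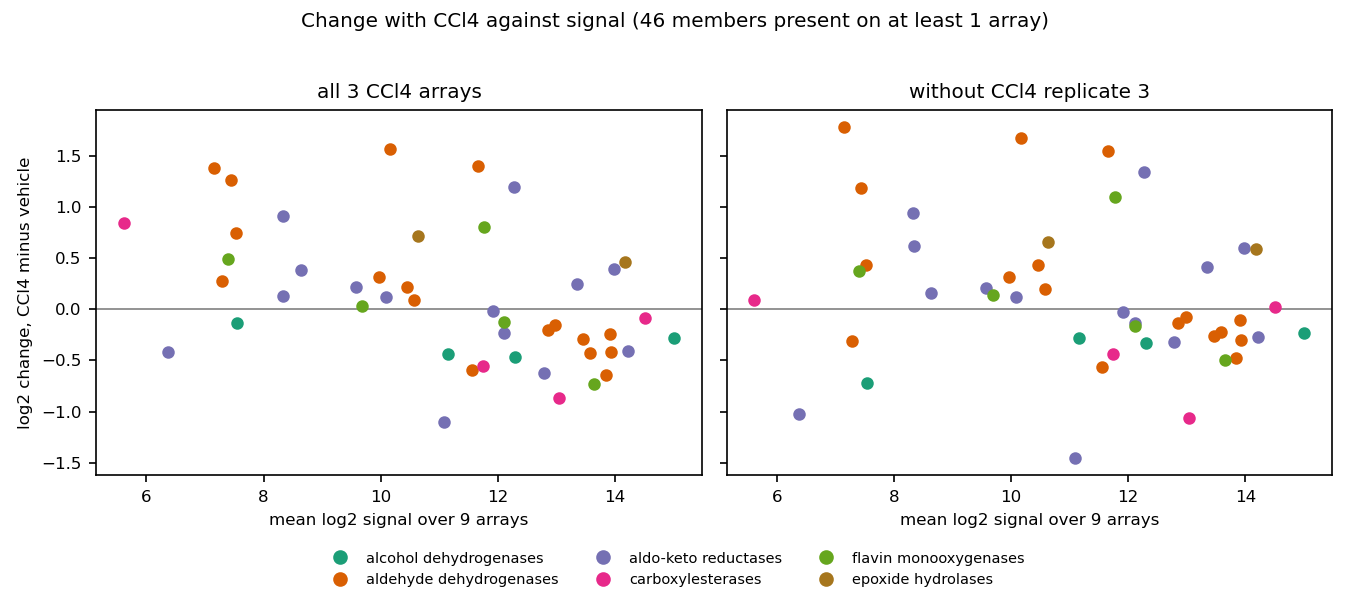
Log2 change between CCl4 and vehicle (vertical axis) against the mean log2 signal over 9 arrays (horizontal axis) for the members present on at least 1 array, coloured by family, with all CCl4 arrays (left) and without CCl4 replicate 3 (right). Most members with a signal of at least 12 lie below 0 in both panels (16 and 15 of 20).

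Between CCl4+Rot and CCl4 rats, limma and the robust fit each called 0 members, with 0.00322% of probe sets called by either. An unadjusted p below 0.05 was reached by 0 members, compared with 5.5% of all genes. Leaving out CCl4 replicate 1 or CCl4 replicate 2 raised the number to 4, and leaving out CCl4 replicate 3 or CCl4+Rot replicate 6 raised it to 1. The groups did not overlap for 2 members that were higher with rottlerin, Aldh4a1 and Akr1c14, and for 0 that were lower, against 5.57% and 5.6% of all genes. Their differences were 0.36 ± 0.16 for Aldh4a1 and 0.31 ± 0.18 for Akr1c14 (adjusted p = 0.752 and 0.765, limma), and 0.29 and 0.17 without CCl4 replicate 3.

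Other members with the smallest p in this comparison were Fmo1 (0.72 ± 0.44), Akr1c1 (0.71 ± 0.43), Akr7a3 (-0.57 ± 0.33), Fmo2 (-0.47 ± 0.28), Akr1c12 (0.43 ± 0.29) and Aldh3a2 (0.30 ± 0.21), and all of them overlapped between the groups. Without CCl4 replicate 3, Akr1c12 differed by 0.13, Aldh3a2 by 0.15 and Akr1c1 by 1.07. Aldh1b1, Aldh1a1 and Aldh18a1, which did not overlap between CCl4 and vehicle, had rottlerin differences of 0.41 ± 0.55, 0.08 ± 0.41 and -0.12 ± 0.18, all smaller than their standard errors. Aldh1b1 and Aldh1a1 turned to -0.04 and -0.14 without CCl4 replicate 1, and Aldh18a1 to 0.13 after median centring. Aldh1a1 was also negative with CCl4 replicate 3 (-0.07) or CCl4+Rot replicate 6 (-0.23) left out. Ces1d and Ces1e differed by 0.15 ± 0.27 (-0.09 without CCl4 replicate 2) and 0.12 ± 0.19 (0.01 without CCl4 replicate 3). Family medians were -0.06 for the alcohol dehydrogenases (0.19 after median centring and 0.22 without CCl4 replicate 2), 0.10 for the aldehyde dehydrogenases, 0.04 for the aldo-keto reductases, 0.13 for the carboxylesterases, 0.33 for the flavin-containing monooxygenases and -0.13 for the epoxide hydrolases (0.12 after median centring and 0.04 without CCl4 replicate 2). The value for the flavin-containing monooxygenases was 0.07, 0.56 and 0.16 without CCl4 replicate 1, 2 and 3 in turn, 0.17 without CCl4+Rot replicate 4, and -0.01 with the mean of all probe sets of a gene.

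Between CCl4+Rot and vehicle rats, limma called 0 members and 0.0258% of all probe sets, and the robust fit called 0 members and 0.776% of all probe sets. An unadjusted p below 0.05 was reached by Aldh18a1, Aldh1a1, Aldh1b1 and Akr1b8, which were higher, and by Ces1d and Ces1e, which were lower, compared with 9.79% of all genes. The groups did not overlap for 10 members that were higher and 6 that were lower, against 15.2% and 9.47% of all genes, and after median centring these counts were 6 and 13, with 9.88% and 16.0% of all genes. The 10 were Aldh18a1, Aldh1a1, Aldh1b1, Aldh3b1, Aldh4a1, Akr1a1, Akr1b8, Akr1c3, Akr1c19 and Ephx1. The 6 were Aldh1a2, Aldh2, Aldh3a2, Aldh7a1, Ces1d and Ces1e. The comparison shares its vehicle arrays with that of CCl4 against vehicle, so the values of a gene in both are not independent.

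Some members varied more between rats of the same group than between groups. Aldh1a7, a close relative of Aldh1a1 that phenobarbital induces in rat liver, had signals of 10.49, 4.15 and 4.87 in vehicle, 5.00, 11.58 and 7.07 in CCl4 and 5.41, 10.56 and 5.18 in CCl4+Rot rats. In each group 1 rat was above 10 and the others were at 7.07 or below, and the gene was present in 1, 2 and 3 rats of the groups. Its pooled SD within groups was 3.30, and 0.02% of the genes present on at least 3 arrays had a larger one. The rats with the high values were vehicle replicate 3, CCl4 replicate 2 and CCl4+Rot replicate 5. Aldh1a1 did not follow this pattern, since its vehicle values lay within 0.11 of each other.

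Ephx2, the soluble epoxide hydrolase that acts on epoxides of fatty acids, had signals of 11.41, 7.92 and 10.32 in vehicle, 9.95, 11.13 and 10.74 in CCl4 and 11.52, 11.01 and 11.72 in CCl4+Rot rats. Vehicle replicate 4 was 2.03 log2 units below the next lowest rat, and the CCl4 difference of 0.72 became -0.26 without it. The pooled SD was 1.11, exceeded by 1.44% of those genes. Fmo5, a monooxygenase that also inserts oxygen next to ketones, had 12.28, 12.08 and 9.95 in vehicle, 12.69, 12.39 and 11.66 in CCl4 and 10.92, 11.55 and 12.40 in CCl4+Rot rats, with vehicle replicate 5 lowest. Its pooled SD was 0.91, exceeded by 2.95% of the genes. The low values of Ephx2 and Fmo5 belonged to different rats. Over all 38 members present on every array, the median pooled SD was 0.222, near the 0.207 of all 7058 such genes.

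**Figure D5:**
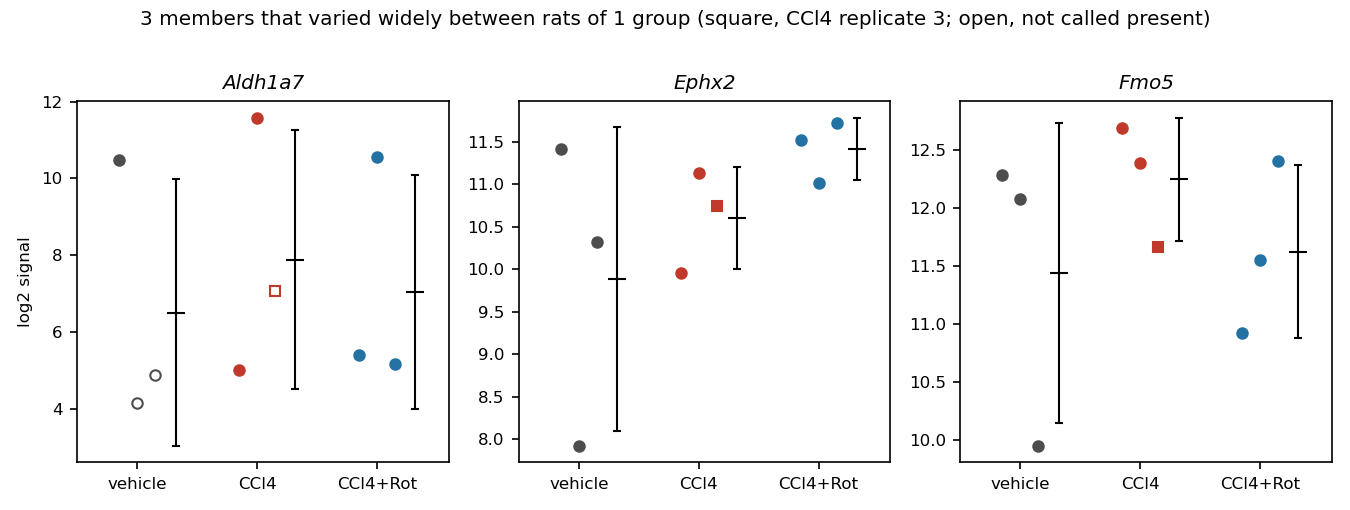
Log2 signal on each array (points) of Aldh1a7, Ephx2 and Fmo5 in vehicle, CCl4 and CCl4+Rot rats, with the group mean and SD beside the points, squares for CCl4 replicate 3 and open symbols where the gene was not called present. In each group 1 rat stands above 10 for Aldh1a7, and 1 vehicle-treated rat stands low for Ephx2 (7.92) and another for Fmo5 (9.95).

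Windows of 300 bases around gene starts were taken from RefSeq (GRCr8), from 250 bases before to 50 bases after the start, and 38 members had at least 1 window. They were searched on both strands for TGACNNNGC, the core of the antioxidant response element, and for GCGTG, the core bound by the aryl hydrocarbon receptor, which are known switches of several of these genes. The first motif was in 12.8% of 39 member windows and in 12.1% of all 33465 windows, and the second in 33.3% and 29.7%. The members with the first were Akr1cl, Aldh16a1, Aldh1a2, Aldh9a1 and Ephx1. The windows of 3 members are printed 5′ to 3′ because these genes stand for both directions of the CCl4 comparison, with Akr7a3 and Ephx1 higher and Ces1d lower, and capitals mark a match on either strand. For Ephx1 the one of its 2 windows that holds a match is shown.
Akr7a3, chr5:156876471-156876770, plus strand: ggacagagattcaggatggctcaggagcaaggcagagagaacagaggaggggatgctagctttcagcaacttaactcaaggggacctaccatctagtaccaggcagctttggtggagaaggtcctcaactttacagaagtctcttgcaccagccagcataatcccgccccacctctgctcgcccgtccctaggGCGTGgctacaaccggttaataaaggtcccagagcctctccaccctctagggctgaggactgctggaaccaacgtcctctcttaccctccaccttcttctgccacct
Ephx1, chr13:95263068-95263367, minus strand: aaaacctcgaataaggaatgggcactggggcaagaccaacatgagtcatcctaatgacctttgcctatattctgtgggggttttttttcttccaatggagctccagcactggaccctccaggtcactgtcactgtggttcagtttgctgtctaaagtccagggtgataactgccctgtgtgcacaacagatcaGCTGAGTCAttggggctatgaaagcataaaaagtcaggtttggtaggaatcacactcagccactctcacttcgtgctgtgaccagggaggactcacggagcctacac
Ces1d, chr19:30046244-30046543, plus strand: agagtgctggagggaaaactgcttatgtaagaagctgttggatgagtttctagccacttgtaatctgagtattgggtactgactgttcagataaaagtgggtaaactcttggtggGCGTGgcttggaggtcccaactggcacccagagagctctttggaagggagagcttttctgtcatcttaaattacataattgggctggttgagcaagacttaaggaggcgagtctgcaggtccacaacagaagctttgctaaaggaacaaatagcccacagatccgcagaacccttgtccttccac

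The window of Akr7a3 held 1 GCGTG and no TGACNNNGC, and that of Ces1d also held 1 GCGTG, so that a gene that was higher and a gene that was lower with CCl4 shared the same motif. The Ephx1 window held TGACNNNGC on the opposite strand. No GCGTG or TGACNNNGC was found in the windows of Aldh1a1, Aldh1b1 and Akr1b8, and Aldh18a1 had no window. A match is a string of letters and not a tested site.

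Partner enzymes of the same reactions were read from a list of 38 genes of carbonyl reductases, oxidases, other esterases and lactonases, of which 33 were measured. Of these, 14 were higher and 19 lower with CCl4, with a median of -0.30 (-0.24 without CCl4 replicate 3). The 14 include 3 genes present on no array, which have no measured change. The median of all genes was 0.13 (0.03 without that array). The mean signal of the list was 11.24 to 11.54 on the arrays. All genes with a signal of 10 to 12 had a median of -0.08, and those of at least 12 had -0.16. Without CCl4 replicate 3 these medians were -0.02 and -0.03. An unadjusted p below 0.05 was reached by 9 partner enzymes, all of them lower, and limma called 0. Of all genes 13.5% reached it, and 577 of the 14377 did so as lower. Among genes with a signal of at least 12, 111 of 882 did so as lower, and at 10 to 12, 214 of 2338. Without CCl4 replicate 3, 3 partner enzymes reached it, all lower, and 667 of all genes did so as lower. Lipc, hepatic lipase, differed by -0.74 ± 0.18 (adjusted p = 0.231, limma) and was called in the robust fit (adjusted p = 0.0282). Adhfe1, which oxidises hydroxybutyrate, differed by -0.95 ± 0.28 (adjusted p = 0.275, limma) and Por, the electron donor of cytochrome P450, by -1.06 ± 0.40 (adjusted p = 0.358, limma), and by -0.74 and -0.59 without CCl4 replicate 3. Nqo1, a quinone reductase, was higher by 1.18 ± 0.63 with overlapping groups. Between CCl4+Rot and CCl4, 24 of the 33 were higher and 9 lower, with a median of 0.18 and 0.08 without CCl4 replicate 3, and neither fit called any. Both counts include some of the 3 genes present on no array. All genes with a signal of 10 to 12 had a median of 0.05 here, and those of at least 12 had 0.11. Without CCl4 replicate 3 both of these medians were -0.01.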

How the data were processed

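Liver RNA of 9 rats was hybridised to Affymetrix Rat Genome 230 2.0 arrays, 1 array per rat. The authors deposited log2 signals with detection calls in 1 table. The submitters' processing notes name MAS5 and affy. After 2% were trimmed at each end, the antilogs average 500 on all arrays, which shows scaling to a shared mean without a quantile step. The genome build is not given in the sources used here, so chromosomes are as the table lists them.

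Of 31099 probe sets, 57 controls were left out and 31042 were fitted with limma 3.58.1 (R 4.3.3) without further normalization or covariates, using 3 group means, two-sided tests and Benjamini-Hochberg adjustment over all of them. The robust fit used statmod 1.5.0. Probe sets naming several genes were not used for a member. Genes present on no array were given no fold. With 3 arrays against 3, an exact permutation test cannot go below p = 0.1, and the number of arrays limits precision. P-values measure the spread between the rats deposited.

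Per-array values are given for members called in either fit, for the 8 with the smallest p in each comparison among those present on at least 3 arrays, and for the highest signal of each family. Members outside this rule were named after their values were seen. Some genes are not reported here by name, although counts and medians over members, families and marker lists include them. The members, lists and tests were chosen with earlier results of these data known. The fits were tested on simulated data. Alternatives were quantile normalization, median centring, filters (lowest 30%, present on at least 3 arrays), array weights and only the groups compared. Others were an unpaired t-test, a replicate block, other ways to read a gene, no fold threshold and each array left out. The overlap counts under other scalings, the signs of all members under each alternative and the robust fit without CCl4 replicate 3 were added after seeing the data. Of the marker lists not described with the results, median CCl4 differences were -0.32 for pericentral hepatocyte, 0.10 for macrophage, 0.93 for cholangiocyte (Krt7 and Cldn4 present on no array), -0.05 for endothelial and 0.47 for leukocyte markers (Cd3d and Cd8a on none). Without CCl4 replicate 3 these medians were -0.05, 0.14, 0.68, 0.08 and 0.19 in the same order.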

Additional observations from a re-analysis of the deposited data

How the results depend on the processing

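In all 3 comparisons, the count of 0 members called in limma held under quantile normalization, median centring, the filter on the lowest 30% and only the groups compared. It also held with an unpaired t-test with Benjamini-Hochberg adjustment, any probe set of a gene, no fold threshold and each array left out (range 0 to 0). The paper lists t-tests among its general tests and names none for the arrays. For CCl4 minus vehicle the count was 1 with probe sets present on at least 3 arrays (Aldh18a1). It was 2 in the robust fit (Aldh18a1 and Akr7a3), which called 1.12% of all probe sets. In the robust fit without CCl4 replicate 3 it was 2 (Aldh18a1 and Ces1d). With the t-test at an unadjusted p below 0.05 and 1.5-fold it was 6. For CCl4+Rot minus vehicle it was 1 with the filter on at least 3 arrays, 1 with array weights and 1 in the robust fit without CCl4 replicate 3, each time Aldh18a1, and 5 with the unadjusted t-test. Shares over all genes are not given for these other settings, so the counts cannot be set against them. Replicate numbers did not pair the rats: same-numbered rats correlated at -0.00466, -0.0125 and -0.0896, and with the replicate block 0 members were called in each comparison.

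Centring each array on its median adds -0.36, 0.25 and -0.11 to all values of the 3 comparisons. Family medians for CCl4 minus vehicle then became -0.64 (Adh), -0.20 (Aldh), -0.23 (Akr), -0.67 (Ces) and -0.25 (all members). For CCl4+Rot minus CCl4 they became 0.19 (Adh), 0.34 (Aldh), 0.29 (Akr), 0.38 (Ces) and 0.33 (all members), and for CCl4+Rot minus vehicle -0.16 (Aldh). With probe sets present on at least 3 arrays, the Ces median for CCl4 minus vehicle was -0.55 and the Ephx median for CCl4+Rot minus vehicle 0.93, both over fewer genes. With each array left out, medians with CCl4 ranged from -0.12 to 0.17 for Aldh, -0.34 to 0.30 for Fmo and 0.46 to 1.28 for Ephx, those with CCl4+Rot against CCl4 from 0.07 to 0.56 for Fmo, 0.03 to 0.24 for Aldh and -0.27 to 0.22 for Adh, and those with CCl4+Rot against vehicle from 0.02 to 0.26 for Akr and -0.57 to -0.19 for Ces. None of the 24 single-gene results chosen for the smallest p in a comparison changed sign under these alternatives. They were picked from these data for that p, so their stable signs are no independent test. Of the members named for the highest signal, Ces1c, Adh1 and Ephx1 changed sign, while Aldh2 and Akr1c14 did not. Ces1c turned from -0.08 to 0.14 for CCl4 minus vehicle under quantile normalization. Adh1 turned from -0.08 to 0.02 for CCl4+Rot minus vehicle without vehicle replicate 4. Ephx1 turned from -0.13 to 0.12 for CCl4+Rot minus CCl4 under median centring. Among all 50 members, 10, 9 and 1 changed sign in the 3 comparisons under median centring and 3, 6 and 0 without CCl4 replicate 3, the latter including Aldh1a2 (-0.31) and Ces1c (0.02) with CCl4 and Aldh1a1 (-0.07) with CCl4+Rot against CCl4. The 4 members present on no array have no measured change.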
